A study of Mus musculus with 24 samples.

Results

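The 10 genes described here encode matricellular and provisional matrix proteins, and were taken by symbol from the 18368 genes of the expression table. They are fibronectin (Fn1), tenascin C (Tnc), the thrombospondins Thbs1, Thbs2 and Thbs4, osteopontin (Spp1), periostin (Postn), osteonectin (Sparc), transforming growth factor beta-induced protein (Tgfbi) and tenascin X (Tnxb). All 10 were measured in 24 RNA-seq libraries of whole skin from 12 CD-1 mice, an outbred strain, aged 7 weeks. Each mouse gave 1 unwounded library (labelled Control) and 1 wound library from a single anatomical site, abdomen, back or cheek, with 4 mice per site. Wounds were full-thickness 2 mm punch biopsies collected at day 3, and the unwounded skin lay next to the wound of the same mouse. Before wounding, the mice were shaved under anaesthesia and had received an analgesic. No other treatment and no engineered allele is described. Cheek mice received 1 wound and abdomen and back mice 2, so that wound number and site cannot be told apart. The samples were whole tissue, in which fewer cells of a type and less RNA per cell cannot be told apart.

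Structural matrix proteins such as fibrillar collagens give skin its strength, whereas matricellular proteins are secreted into the matrix and act mainly by binding cells, growth factors and other matrix proteins. After injury, a provisional matrix of fibrin and fibronectin fills the wound, and cells that enter it through integrin receptors then add proteins such as tenascin C and the thrombospondins. Tenascin C is scarce in resting adult skin and is known to be deposited in healing wounds, while osteopontin is secreted by macrophages among other cells and binds integrins and CD44.

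The values are FPKM, fragments scaled by transcript length and by the mapped fragments of the library, which are adjusted for length so that levels can be compared between genes. Differences are on the scale of log2(FPKM + 0.5), with the test by limma. The fit of wound effects held a term for each mouse and a wound effect for each site. A gene was called changed by wounding at an adjusted p under 0.001 and different between sites at an adjusted p under 0.05, with adjustment over all genes tested. All 10 genes passed the filter on low values. Total FPKM per library ran from 490830 to 608888, and the lowest values, which are set by single fragments, gave relative depths of 0.923 to 1.02. The library of cheek unwounded mouse 4 was the least like its own group, with a mean correlation of 0.948 against 0.963 to 0.986 for the other 23 libraries. Neutrophil markers (S100a8, S100a9, Csf3r, Cxcr2 and Mmp8) were called higher in wounds for 5 of 5 genes at each site, and their summed FPKM was 7.99 to 36.9 in unwounded skin and 337 to 2377 in wounds.

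Spp1 and Tnc had the largest wound effects of the 10 genes at all 3 sites. The 250 bases upstream of their outermost annotated starts (RefSeq, GRCm38.p6) are shown because these genes rose the most in wounds at every site. Capitals mark a match to TATAAA in both genes and, in Spp1, a match on the other strand to TGTGGT, the core letters bound by RUNX factors. The Spp1 stretch is chr5:104434861-104435110 on the plus strand, and the Tnc stretch is chr4:64047016-64047265 on the minus strand.
Spp1: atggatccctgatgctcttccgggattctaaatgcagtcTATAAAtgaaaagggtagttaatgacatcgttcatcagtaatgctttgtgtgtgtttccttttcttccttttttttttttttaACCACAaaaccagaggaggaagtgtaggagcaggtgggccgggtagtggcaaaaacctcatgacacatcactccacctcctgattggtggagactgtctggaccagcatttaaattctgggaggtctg
Tnc: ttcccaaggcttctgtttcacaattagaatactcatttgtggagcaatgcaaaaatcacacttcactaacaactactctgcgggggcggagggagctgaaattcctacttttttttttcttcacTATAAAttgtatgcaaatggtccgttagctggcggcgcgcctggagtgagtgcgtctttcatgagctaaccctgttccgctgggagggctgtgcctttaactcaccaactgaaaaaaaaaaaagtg
Searched on both strands, TATAAA occurred in 12.4% and TGTGGT in 14.0% of the 32851 upstream windows of this length, and TGANTCA, the letters bound by AP-1, in 6.75%. In these stretches TGANTCA had no match, and the TATAAA matches began 211 bases before the annotated start in Spp1 and 126 bases before it in Tnc. A match describes the letters alone. A second Tnc start is annotated at position 64046936, inside the gene. Of the 10 genes, 8 had a window in the table, and among these TGANTCA was found upstream of Tnxb only.

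The genes lie on 8 chromosomes of GRCm38. Fn1 (gene 14268) spans chr1:71585473-71653280, Thbs1 (21825) chr2:118111876-118127133, Postn (50706) chr3:54359267-54391041, Tnc (21923) chr4:63959785-64047015 and Spp1 (20750) chr5:104435111-104441053. Sparc (20692) spans chr11:55394159-55420080, Tgfbi (21810) chr13:56609586-56639359, Thbs4 (21828) chr13:92751586-92794818, Thbs2 (21826) chr17:14665500-14694262 and Tnxb (81877) chr17:34660453-34719815. Exons of Fn1, Thbs1 and Tnxb overlap a transcript on the opposite strand in GENCODE, and Spp1 overlaps an unclassified transcript on its own strand. Whether counting used strand is not given in the sources used here, so fragments of the overlapping parts may be shared.

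The first question was which of these genes changed in day 3 wounds at each site. In abdomen wounds 3 of 10 genes rose (Tnc, Thbs4 and Spp1) and none fell, beside 4.96% of all 14423 genes tested (3.92% higher and 1.04% lower). In back wounds 4 of 10 changed, with Tnc, Thbs1 and Spp1 higher and Sparc lower, beside 14.4% of all genes (4.37% lower and the rest higher). In cheek wounds 5 of 10 rose (Tnc, Thbs1, Thbs2, Thbs4 and Spp1) and none fell, beside 8.69% (6.50% higher and 2.19% lower). For the 10 genes the median log2 difference was 0.35 (abdomen), 0.65 (back) and 1.11 (cheek), beside medians over all genes of -0.01, 0.07 and 0.01. The abdomen count rested on the spread shared with the other sites, and was 0 of 10 in fits restricted to the 8 libraries of a site, with adjusted p of 0.0010 (Thbs4) to 0.0088 (Tnc). In such fits the calls of Spp1 in back and of Thbs2 and Thbs4 in cheek were lost too (adjusted p = 0.0017 to 0.0022), with the same differences.

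**Figure D1:**
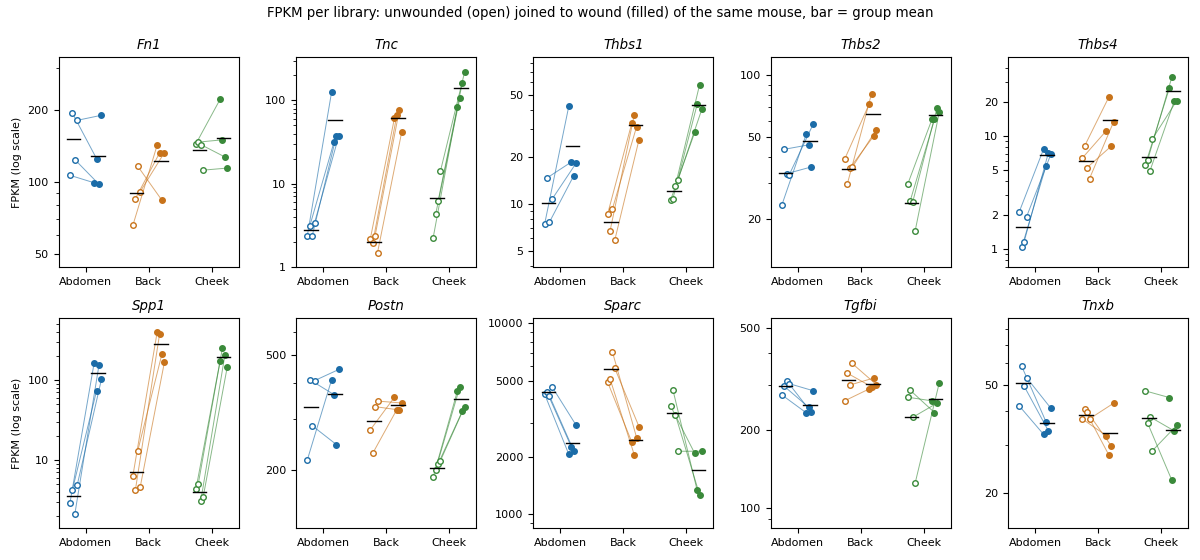
FPKM of each gene (log axis) in the 24 libraries by site, with open circles for unwounded skin, filled circles for the wound of the same mouse, lines joining the pair and black bars for group means (n = 4). Spp1 and Tnc separate into low unwounded and high wound values at every site, Sparc is lower in wounds with overlap in the cheek, and Fn1 and Tgfbi overlap between the states at every site.

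Osteopontin was listed at 2.92, 4.25, 2.11 and 4.90 FPKM in the unwounded abdomen of mice 1 to 4, and at 164, 73.5, 155 and 102 in their wounds. Back skin had 6.40, 4.19, 13.04 and 4.58 FPKM and back wounds 392, 371, 211 and 166. Cheek skin had 4.29, 5.04, 3.05 and 3.42 FPKM and cheek wounds 171, 253, 205 and 147. The lowest wound value of Spp1 (73.5, abdomen) lay above the highest unwounded value (13.04, back) of all sites. The log2 difference was 4.92 (SE 0.38, limma adjusted p = 1.7e-05) in abdomen, 5.28 (adjusted p = 3.5e-06) in back and 5.44 (adjusted p = 3.6e-06) in cheek. By FPKM rank, Spp1 stood between 5184 and 11382 in unwounded libraries and between 219 and 1098 in wounds. The summed level of 6 macrophage markers moved with it, from 139 to 275 FPKM in unwounded skin to 451 to 819 in wounds, with 4, 5 and 5 of 6 markers called higher in abdomen, back and cheek, and its part in the Spp1 values was not tested. No macrophage marker was at 0 in all libraries.

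Tenascin C, which loosens the contact of cells with fibronectin, had 2.35, 3.07, 2.33 and 3.37 FPKM in unwounded abdomen and 125, 31.4, 37.5 and 37.4 in abdomen wounds. Back skin had 2.14, 1.92, 2.35 and 1.47 FPKM, against 61.5, 66.7, 76.1 and 41.7 in back wounds. Cheek skin had 2.23, 4.24, 6.08 and 14.1 FPKM, against 83.2, 106, 162 and 221 in cheek wounds. All wound values lay above all unwounded values, and the nearest pair were 14.1 in unwounded cheek mouse 4 and 31.4 in the wound of abdomen mouse 2. The abdomen wound of mouse 1 stood far above the other 3 abdomen wounds. The log2 difference of Tnc was 3.91 (SE 0.30, limma adjusted p = 1.1e-05) in abdomen, 4.63 (adjusted p = 1.2e-06) in back and 4.49 (adjusted p = 2.0e-06) in cheek. The cheek mouse with the highest unwounded Tnc (mouse 4) also had the highest wound value, and without this mouse the cheek call held.

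The thrombospondins are secreted proteins of which Thbs1 is stored in platelets, activates latent transforming growth factor beta and restrains vessel growth. Thbs1 was at 8.58, 6.67, 9.27 and 5.87 FPKM in back skin and at 32.8, 37.0, 31.2 and 25.8 in back wounds. In the cheek it was at 10.5, 10.8, 13.04 and 14.1 FPKM before and 28.7, 43.3, 57.7 and 40.5 after wounding. Both sites had no overlap between the states, and the log2 differences were 2.00 (SE 0.27, limma adjusted p = 1.4e-04) and 1.74 (adjusted p = 5.1e-04). Abdomen values were 7.42, 14.6, 7.63 and 10.7 FPKM unwounded and 42.3, 18.5, 15.1 and 18.2 in wounds, a log2 difference of 1.11 that was not called (adjusted p = 0.0087). The wound of mouse 1 was again the highest of its group, while the other 3 (15.1 to 18.5 FPKM) lay closely above the highest unwounded value (14.6). The back call was lost without back mouse 2 (adjusted p = 0.0015) or mouse 4 (0.0012). The cheek call was lost without any 1 of the 4 cheek mice (adjusted p = 0.0019 to 0.0047), and also without back mouse 1, back mouse 4 or abdomen mouse 3 (0.0010 to 0.0011), with differences of 1.62 to 1.85.

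Thbs2, a related protein that binds matrix metalloproteinases and affects collagen fibril assembly, was at 29.7, 24.6, 24.3 and 17.5 FPKM in cheek skin and at 61.3, 61.0, 69.1 and 66.4 in cheek wounds. The log2 difference was 1.43 (SE 0.19, limma adjusted p = 1.8e-04), and the call was lost without cheek mouse 2, 3 or 4 (adjusted p = 0.0011 to 0.0016). In the back it was at 39.4, 29.7, 35.4 and 35.7 FPKM against 72.4, 81.5, 50.9 and 54.5 in wounds (log2 difference 0.86, adjusted p = 0.0036). In the abdomen 23.6, 43.7, 33.3 and 32.9 FPKM stood against 51.7, 45.9, 35.9 and 58.3 in wounds (0.53, adjusted p = 0.055). Neither was called, and the states overlapped in the abdomen alone. Thbs2 was higher in the wound of 12 of 12 mice.

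Thbs4, known from muscle and tendon attachments, rose in abdomen from 2.15, 1.04, 1.17 and 1.94 FPKM to 7.65, 5.43, 7.11 and 6.88. In the cheek it rose from 5.53, 6.13, 4.95 and 9.45 FPKM to 26.5, 33.0, 20.3 and 20.4. The log2 differences were 1.84 (SE 0.20, limma adjusted p = 5.5e-05) and 1.88 (adjusted p = 2.6e-05), without overlap between the states. Back skin had 6.38, 8.18, 5.26 and 4.21 FPKM and back wounds 11.2, 22.1, 8.15 and 13.4, and the difference of 1.07 missed the threshold (adjusted p = 0.00104). It passed without cheek mouse 2 (9.7e-04) or cheek mouse 4 (2.0e-04), neither of which carries back values. Summed levels of 5 skeletal muscle markers (Acta1, Myh4, Ckm, Mylpf and Tnnt3) were 434 to 19570 FPKM in unwounded libraries and 1528 to 5796 in wounds, and those of 3 tendon markers (Tnmd, Scx and Mkx) 21.5 to 107 and 12.7 to 32.4. The medians of both sums were lower in wounds than in unwounded skin at each site. The muscle sum was higher in the wound in abdomen mice 2 and 3 (434 and 2293 FPKM unwounded, 2176 and 3577 in wounds) and lower in all other mice. Thbs4 was higher in the wound of 12 of 12 mice. The part of the muscle and tendon markers in the wound values of Thbs4 was not tested.

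Sparc, a collagen-binding protein of matrix-producing cells, was by far the most abundant of the 10 genes. In back skin it was at 4915, 5113, 7072 and 5798 FPKM and in back wounds at 2382, 2047, 2508 and 2863. It fell by 1.22 on the log2 scale (SE 0.21, limma adjusted p = 5.6e-04) with no overlap. That call was lost without any 1 of the 4 back mice (adjusted p = 0.0024 to 0.0049), without cheek mouse 1 or abdomen mouse 3 (0.0010 and 0.0011), without the filter on low values (0.0011) and after quantile normalisation (difference -0.96, adjusted p = 0.0033). Abdomen values were 4244, 4339, 4158 and 4654 FPKM unwounded and 2050, 2252, 2148 and 2917 in wounds, a log2 difference of -0.91 that was not called (adjusted p = 0.0064) except without cheek mouse 4 (6.7e-04). Cheek values were 3686, 4465, 3311 and 2131 FPKM unwounded and 2077, 1332, 1261 and 2132 in wounds, a difference of -0.99 (adjusted p = 0.0031). In the cheek the states overlapped through mouse 4, the only mouse of 12 whose wound value was not the lower, and without this mouse the difference was -1.32 and called (adjusted p = 1.3e-04). Sparc ranked 2 to 17 by FPKM in unwounded libraries and 10 to 60 in wounds.

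The summed level of fibroblast markers moved with Sparc, but not every marker did. The summed FPKM of Pdgfra, Dcn, Lum, Col1a2, Col3a1 and Dpt was 10024 to 14446 in unwounded abdomen and 6688 to 9400 in its wounds, 11392 to 16400 and 7070 to 9237 in the back, and 6881 to 11912 and 4792 to 8633 in the cheek. Of the 6 markers, 1 (Col1a2) was called lower in the back, beside 4.37% of all genes. None was called in abdomen or cheek, and none was at 0. Pdgfra had log2 differences of -0.01, 0.58 and 0.59 in abdomen, back and cheek (limma adjusted p = 0.97, 0.0100 and 0.012), opposite to Sparc at the last 2 sites, and Lum had -0.49, -0.04 and -0.12. In the same order of sites, Dcn had -0.70, -0.46 and -0.40, and Col1a2 had -0.94, -1.26 and -1.06. Col3a1 had -0.54, -0.48 and -0.30, and Dpt had -1.07, -1.04 and -0.91, so that these markers went in the direction of Sparc. Pdgfra and Lum were singled out after their values were seen. The cheek unwounded library with the lowest Sparc (mouse 4) also had the lowest fibroblast sum of its group. The part of the fibroblast markers in the Sparc values was not tested.

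Fibronectin, the provisional matrix protein that integrin alpha5 beta1 binds, showed no called wound effect. Its values were 107, 195, 124 and 181 FPKM in unwounded abdomen and 99.4, 125, 97.9 and 191 in wounds. Back skin had 66.0, 85.2, 117 and 91.3 FPKM and back wounds 143, 132, 83.9 and 133. Cheek skin had 144, 147, 144 and 112 FPKM and cheek wounds 222, 150, 127 and 115. The groups overlapped at every site, and 7 of 12 mice were higher in the wound and 5 lower. By site, 1 abdomen mouse was higher and 3 lower, while in back and in cheek 3 were higher and 1 lower. The log2 differences and 95% intervals were -0.25 (-0.70 to 0.20), 0.45 (0.0035 to 0.90) and 0.13 (-0.32 to 0.57) in abdomen, back and cheek. The limma adjusted p was 0.37, 0.091 and 0.66, and the unadjusted p in the back was 0.048.

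Periostin, which promotes collagen cross-linking, had no called wound effect either. In the cheek it was at 190, 201, 210 and 216 FPKM unwounded and 375, 388, 319 and 332 in wounds, without overlap, a log2 difference of 0.79 (SE 0.16, limma adjusted p = 0.0026). This was called without abdomen mouse 1 (adjusted p = 2.4e-04), whose libraries hold no cheek values. Postn in the abdomen was at 217 to 411 FPKM unwounded and 246 to 445 in wounds (difference 0.16, adjusted p = 0.47), and in the back at 229 to 347 and 323 to 357 (0.20, adjusted p = 0.33). Tgfbi, an integrin-binding protein induced by transforming growth factor beta, spanned 124 to 365 FPKM in unwounded skin and 234 to 320 in wounds. Its wound differences were -0.25, -0.05 and 0.29, with adjusted p = 0.34, 0.85 and 0.26. Tnxb, the tenascin of resting dermis that binds collagen fibrils, spanned 28.6 to 58.3 FPKM unwounded and 22.3 to 44.8 in wounds, with differences of -0.48 (adjusted p = 0.021), -0.24 (0.18) and -0.16 (0.41). Its abdomen values did not overlap, at 41.7, 58.3, 49.3 and 53.0 FPKM unwounded and 32.9, 36.6, 33.9 and 41.0 in wounds.

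**Figure D2:**
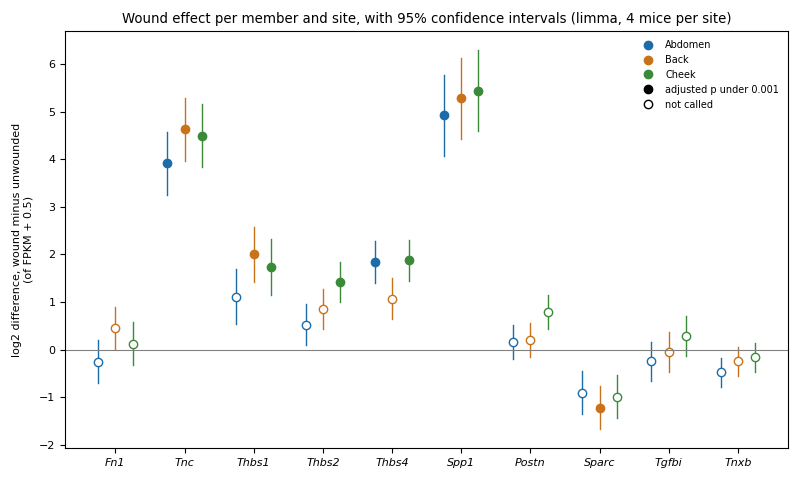
Log2 difference between wound and unwounded skin (y axis, log2 of FPKM + 0.5) for each gene at abdomen, back and cheek, with 95% confidence intervals from limma and filled points for an adjusted p under 0.001. Spp1 lies at 4.92 to 5.44 and Tnc at 3.91 to 4.63, the thrombospondins between 0.53 and 2.00, and Sparc between -1.22 and -0.91.

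Because the study used Fn1 as the reference gene for quantitative PCR of wound tissue, the ratios of Spp1 and Tnc to Fn1 were computed within each library. Per unit of Fn1, Spp1 was at 0.0170 to 0.112 in unwounded libraries and 0.533 to 2.80 in wounds. The log2 ratio rose by 5.11 ± 0.70 (SD, n = 12 mice), in 12 of 12 mice (exact permutation test over all sign changes, two-sided p = 4.9e-04, the smallest it can give). By site, abdomen mice rose by 5.17 ± 0.96, back mice by 4.83 ± 0.57 and cheek mice by 5.31 ± 0.62 (SD, n = 4 each). Tnc per unit of Fn1 was at 0.0154 to 0.126 unwounded and 0.196 to 1.93 in wounds, and its log2 ratio rose by 4.24 ± 0.69 (SD, n = 12 mice) in 12 of 12 mice (exact permutation test, two-sided p = 4.9e-04). By site the rise of Tnc was 4.17 ± 1.00, 4.18 ± 0.75 and 4.37 ± 0.38. Within 1 site of 4 mice the exact test cannot go below 0.125.

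**Figure D3:**
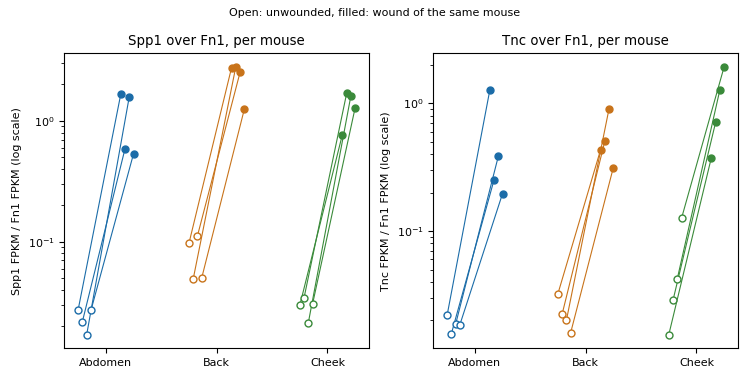
FPKM of Spp1 (left) and Tnc (right) divided by that of Fn1 (log axis) for each mouse, unwounded (open) joined to wound (filled), by site. Every line rises, from at most 0.112 to at least 0.533 for Spp1 and from at most 0.126 to at least 0.196 for Tnc.

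Summed over the 10 genes, mean expression was lower in wounds at each site and its make-up differed. The sum was 5229 ± 345 FPKM (SD, n = 4) in unwounded abdomen and 3382 ± 489 in wounds, 6522 ± 1043 and 3701 ± 242 in the back, and 4057 ± 1051 and 2975 ± 474 in the cheek. In cheek mouse 4 the sum was higher in the wound (2671 FPKM unwounded, 3416 in the wound), and the cheek states overlapped. Sparc alone made up 83.2%, 87.7% and 83.3% of the sum in unwounded abdomen, back and cheek and 69.1%, 66.0% and 56.4% in the wounds. Without Sparc the sum was 881 ± 164 FPKM in unwounded abdomen and 1041 ± 160 in wounds, 797 ± 90.1 and 1251 ± 144 in the back, and 658 ± 81.8 and 1275 ± 18.0 in the cheek. Within that remainder, Spp1 went from 0.398%, 0.879% and 0.599% in abdomen, back and cheek to 12.1%, 22.2% and 15.2%, and Tnc from 0.317%, 0.251% and 1.11% to 5.38%, 4.94% and 11.2%. By group means, Postn and Tgfbi were the 2 largest components of the remainder in all 6 groups. These sums and shares are descriptions, without a test.

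**Figure D4:**
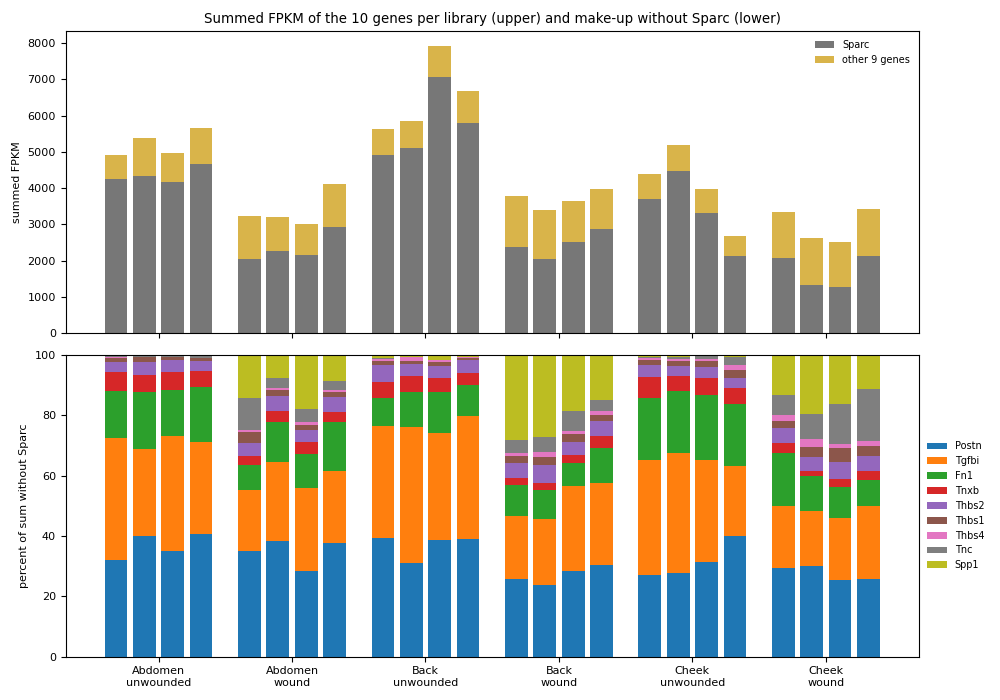
Upper, FPKM of Sparc and of the other 9 genes stacked per library, with 4 bars per site and state for mice 1 to 4. Lower, each gene's percent of the sum without Sparc. Sparc makes up most of every bar, and Spp1 and Tnc take larger shares of the remainder in the wounds of every site.

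The next question was whether the wound response of these genes differed between sites. By limma's F test of the 3 site effects none of the 10 genes passed an adjusted p of 0.05, beside 0.0208% of all genes. An unadjusted p under 0.05 was reached by 3 of the 10, beside 1867 of all 14423 genes tested. These were Thbs2 (limma adjusted p = 0.30), Thbs4 (adjusted p = 0.32) and Postn (adjusted p = 0.34). Without abdomen mouse 1, whose wound was high for Tnc and Thbs1, 3 genes passed (Tnc, Thbs1 and Postn), in a fit that called 315 genes in all. A wound effect called at 1 site and not at another was therefore not shown to differ between them.

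In unwounded skin, Thbs4 was the only 1 of the 10 genes called different between sites in the fit of the 12 unwounded libraries. It was higher in back than in abdomen (log2 difference 1.65, limma adjusted p = 0.0054, beside 2.67% of all genes) and higher in cheek than in abdomen (1.76, adjusted p = 0.0036, beside 2.57%). No abdomen value (1.04 to 2.15 FPKM) reached the lowest of the other sites (4.21), and back and cheek did not differ beyond their spread (0.11, 95% interval -0.42 to 0.63). Skeletal muscle markers had median log2 differences of 1.92 (back) and 2.06 (cheek) against abdomen, and none of 5 was called. The abdomen libraries with muscle sums of 434, 2293, 12326 and 13416 FPKM had Thbs4 at 1.04, 1.17, 1.94 and 2.15. Unwounded back libraries had muscle sums of 11973 to 18887.5 FPKM and Thbs4 at 4.21 to 8.18 FPKM. Unwounded cheek libraries had muscle sums of 9727 to 19570 FPKM and Thbs4 at 4.95 to 9.45 FPKM. The abdomen muscle sums of 12326 and 13416 FPKM thus lay within the ranges of back and cheek, while Thbs4 in those abdomen libraries lay below both. All 5 muscle markers were detected, and the tendon sum was 70.6 to 107 FPKM in the back against 21.5 to 33.8 in abdomen and 23.9 to 41.3 in cheek. Their part in the Thbs4 values was not tested.

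For the other 9 genes, cheek and back skin showed the most unadjusted differences. Between these sites 7 of the 10 genes had an unadjusted p under 0.05, beside 3008 of all 13956 genes tested. None of the 10 was called, beside 1.05% of all genes. Sparc was 0.79 lower on the log2 scale in cheek (adjusted p = 0.087), Postn 0.52 lower (0.17), Thbs2 0.55 lower (0.14) and Tgfbi 0.54 lower (0.19), while Tnc was 1.28 higher (0.12), Thbs1 0.65 higher (0.13) and Fn1 0.63 higher (0.14). The median difference over all genes in this comparison was 0.14, and in back against abdomen -0.12. With all 24 libraries fitted as 6 groups, Sparc was called lower in cheek than in back (adjusted p = 0.025) and Postn lower in cheek than in abdomen (0.031). Without cheek mouse 1, Tnc was called between cheek and back (1.65, adjusted p = 0.033). Without cheek mouse 4, which had the highest unwounded Tnc, the difference was 0.85 and not called. Without abdomen mouse 1, Fn1 was called lower in back than in abdomen (-0.89, adjusted p = 0.041) and Postn lower in cheek than in abdomen (-0.83, adjusted p = 0.026).

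Among the wounds Thbs4 was again the only 1 of the 10 genes called, higher in cheek than in abdomen (1.79, limma adjusted p = 0.0040), beside 10.8% of all genes. In unwounded skin this difference was 1.76, and the wound effect of Thbs4 differed by 0.04 between these sites (limma adjusted p = 0.97). The order of Thbs4 in wounds was abdomen (5.43 to 7.65 FPKM), back (8.15 to 22.1) and cheek (20.3 to 33.0), with back and cheek overlapping. Cheek against back (0.91, adjusted p = 0.069) and back against abdomen (0.89, adjusted p = 0.11) did not pass, beside 2.50% and 1.27% of all genes, and the first passed without back mouse 2 (1.16, adjusted p = 0.028). Skeletal muscle sums were 1528 to 4625 FPKM in abdomen wounds, 2805 to 3993 in back wounds and 4223 to 5796 in cheek wounds, and 2 of 5 muscle markers were called higher in cheek than in abdomen. Their part was not tested. Tnc in cheek wounds was 1.45 higher than in abdomen wounds (adjusted p = 0.055) and Thbs1 0.92 higher (adjusted p = 0.064). Without abdomen mouse 1 both were called (1.90, adjusted p = 0.0092, and 1.24, adjusted p = 0.0080), and with all 24 libraries as 6 groups Thbs1 was (adjusted p = 0.047). Spp1 was highest in back wounds by mean (285 ± 113 FPKM, SD, n = 4, against 194 ± 46.0 in cheek and 124 ± 43.3 in abdomen), and no pair of sites differed by the test (adjusted p = 0.10 to 0.37).

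The surrounding pathway was followed in 68 genes in 9 lists, of which 58 passed the filter. In abdomen wounds 8 rose and 1 fell (15.5% called, beside 4.96% of all genes), in back wounds 16 and 6 (37.9%, beside 14.4%) and in cheek wounds 15 and 1 (27.6%, beside 8.69%), while the F test between sites called none. The counts by list that follow stand beside the same shares. Among the other matricellular and adaptor proteins 3, 4 and 4 of 14 rose and 0, 1 and 0 fell. Emilin1, an elastic fibre glycoprotein, rose by 1.09, 1.54 and 1.42, and Fbln2 rose in back (1.36) and cheek (1.36). Npnt, an integrin-binding basement membrane protein, fell by 0.62 in back.

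Among 16 receptors, none fell in any wound, and 2 (abdomen), 5 (back) and 5 (cheek) rose. Itga5, the fibronectin receptor subunit, rose from means of 9.99, 8.05 and 9.50 FPKM to 22.4, 27.8 and 32.0 (log2 differences 1.12, 1.73 and 1.70, limma adjusted p = 5.3e-06, 1.0e-07 and 1.1e-07). Its ligand Fn1 was not called at any site. Cd44, a receptor for osteopontin and hyaluronan, rose by 0.92, 1.50 and 1.20. Stab1, a scavenger receptor of macrophages that takes up Sparc, rose in back (1.39) and cheek (1.33). Between wounds, 6 of 16 receptors were higher in cheek than in abdomen and none lower, beside 10.8% of all genes called, of which 1054 were higher and 465 lower.

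In the CCN family of matricellular proteins, 1, 3 and 2 of 5 tested genes rose in abdomen, back and cheek. Wisp1 (CCN4) rose by 1.39, 2.11 and 2.67 and Wisp2 (CCN5) rose in back (1.01) and cheek (1.21). Nov (CCN3) rose in back by 2.24. In the SPARC family 1, 2 and 1 of 5 tested genes fell and none rose. Spock2 fell by 1.10, 1.17 and 1.20 on the log2 scale, and Smoc2 fell by 1.08 in back. Of the other thrombospondins and tenascins, Tnn (tenascin W) rose in back (1.92) and cheek (2.84), and Comp was lower in unwounded cheek than abdomen (-0.97, limma adjusted p = 0.032).

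Of 4 ligands of the transforming growth factor beta family, 1 (abdomen), 2 (back) and 2 (cheek) rose, while 1 fell in back. Tgfb1 rose by 1.08, 1.31 and 1.20 and Inhba, the activin A subunit, rose in back (1.80) and cheek (1.55). Tgfb2 fell by 1.33 on the log2 scale in back. Of 6 collagen partners, Col12a1, a fibril-associated collagen that tenascins can bind, rose by 1.99, 2.64 and 2.68, and Col1a2 fell by 1.26 in back. Col6a1 was higher in cheek wounds than in abdomen wounds (0.47, limma adjusted p = 0.023). Of the 4 clot and cross-linking genes tested, only Tgm2, a transglutaminase, was called by wounding, and fell by 0.94 in back. Tgm2 was also higher in unwounded back (1.24) and cheek (1.23) than in abdomen. Vtn, an adhesive protein of plasma, was higher in cheek than in abdomen in unwounded skin (0.84) and in wounds (0.61). The 3 fibrinogen genes did not pass the filter, and the 1 tested gene of the osteopontin family beside Spp1 was not called.

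**Figure D5:**
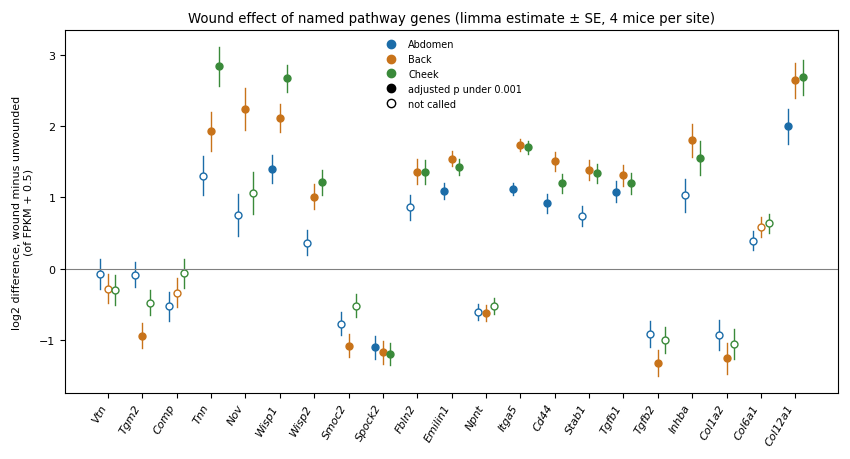
Log2 difference between wound and unwounded skin (y axis, log2 of FPKM + 0.5, limma estimate with bars of 1 SE) for the named pathway genes, each called in at least 1 comparison, by site, with filled points for an adjusted p under 0.001. Col12a1 lies at 1.99 to 2.68 and Spock2 at -1.20 to -1.10.

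The genes most like each member were sought by Pearson's r of log2(FPKM + 0.5) over the 24 libraries, which share the shift between unwounded skin and wounds. Spp1 was nearest to Clec4d (r = 0.98), Cxcl2 (0.98) and Ccl3 (0.98), and Tnc to Col12a1 (0.98), Cemip (0.97) and Nek6 (0.97). Sparc was nearest to Col1a2 (0.98), Pdgfrl (0.98) and Sema3b (0.97), and Thbs1 to Il17ra (0.96). The best r of Thbs2 (Lhfpl2, 0.94), Thbs4 (Bag3, 0.90), Tnxb (Dcn, 0.86), Tgfbi (Hsd17b11, 0.83), Postn (Tbc1d1, 0.83) and Fn1 (Dlg4, 0.82) were lower. Over the 12 within-mouse differences, which leave out that shift but still hold any difference between sites, Sparc was nearest to Serpina3c (0.97) and Col1a2 (0.97), Thbs1 to Krt16 (0.96), Tnc to Ints2 (0.95) and Fn1 to Mfap5 (0.92). Among the members, Tnc and Thbs1 had r = 0.95 over the 24 libraries and 0.87 over the 12 differences. Tnc and Spp1 had 0.92 and 0.48. The wound of abdomen mouse 1, high for both Tnc and Thbs1, entered these values. The values of the nearest genes are descriptions chosen as the highest of 14413 genes, and those among the members are descriptions too.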

How the data were processed

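The 10 genes and all lists were chosen with earlier results of these data known. The authors' provider mapped paired reads of 100 bases to GRCm38 (HISAT2, Bowtie2 2.2.5) and quantified them with RSEM 1.2.12. The deposited FPKM values, rounded to 2 decimals, were used as they stood. A deposited table of the authors' log2 fold changes and adjusted p-values was not used, and 0 per-sample columns were left unused. Genes at 0.5 FPKM or more in at least 4 libraries entered limma 3.58.1 (R 4.3.3, trend and robust) on log2(FPKM + 0.5). Wound effects came from all 24 libraries with a term per mouse, and site differences from the 12 unwounded or 12 wound libraries. Adjustment was by Benjamini-Hochberg over 14423, 13956 or 14023 genes. Mouse numbers pair libraries within a site, as the same mouse (mean correlation of deviations 0.32, 0.35 and 0.28 in abdomen, back and cheek, against -0.11, -0.12 and -0.10 between mice). Across sites the numbers pair nothing (-0.03 and -0.05). The limma scripts were tested on simulated data. The text names all 10 members, at most 3 called pathway genes per list and direction with the largest differences, and the nearest genes of each member, of up to 3 listed. One pathway gene that this rule names is not reported here.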

Additional observations from a re-analysis of the deposited data

Results flagged for a closer look

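Of 66 groups of 4 libraries examined for the 10 genes and their sum, 3 had 1 library far from the other 3 by Dixon's criterion at its 95% critical value, which flags about 1 group in 20 by chance. In abdomen wounds, mouse 1 was the highest for both Tnc (125 FPKM) and Thbs1 (42.3 FPKM). In unwounded cheek, mouse 4 was the lowest for Fn1 (112 FPKM), and the other 3 libraries lay between 144 and 147. No member passed the test of a difference in wound response between sites.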

How the results depend on the processing

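Under every alternative the wound effects of Spp1 and Tnc kept their direction. With each site fitted on its own 8 libraries, 0 genes were called in abdomen wounds and 3 in cheek wounds, against 3 and 5, and the count in back wounds stayed at 4 although Spp1 was lost there (limma adjusted p = 0.0019) and Thbs4 gained. The abdomen calls lost were Tnc (adjusted p = 0.0088), Spp1 (0.0042) and Thbs4 (0.0010). At an adjusted p of 0.05, 6 were called in abdomen wounds. Many more of all genes pass there too, as an unadjusted limma p under 0.05 was reached by 7 of the 10 and by 6386 of all 14423 genes. With all 24 libraries as 6 groups, 3 genes differed between unwounded sites and 2 between wound sites, against 1 and 1. Leaving out 1 mouse at a time gave 3 to 4 calls in abdomen wounds, 2 to 5 in back wounds, 3 to 6 in cheek wounds, 0 to 3 in the test between sites, 1 to 3 between unwounded sites and 1 to 3 between wound sites. The 3 calls in each of the last 3 came without abdomen mouse 1, the 2 calls in the back without back mouse 2 or 4, and the 3 in the cheek without cheek mouse 2 or 3. Without the term for mouse (no replicate block), 3, 5 and 6 genes were called in abdomen, back and cheek wounds, Thbs2 being added in the back and Sparc in the cheek, and 0 between sites. A replicate block across sites left 1 and 1. These counts show only how far the calls moved, and the share of all genes called under each alternative is not reported here. Calls of single genes that moved when 1 mouse was left out are given beside their values, and causes were not tested. Over all comparisons of single genes with 1 mouse left out, 1051 kept their side of the threshold, 11 gained a call and 18 lost one. Under other settings these were 817, 15 and 8. No direction of a called effect was reversed. With 4 mice per site, wound effects with log2 differences as large as 1.11 (Thbs1 in abdomen) missed the threshold, and FPKM without counts allow no counting error.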
